A study of Mus musculus with 12 samples.

Results

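Klhl13, Foxi3, Fgfbp1, Ap3b2 and Prr19 are 5 genes of mouse embryonic stem cells (ESCs) that were chosen by their deposited FPKM (a transcript level scaled by transcript length and library size), which was much higher in Tfcp2l1 knockout cells than in wild-type cells of the same medium. They are 5 of 23496 genes in the deposited table and of 12329 genes tested, and all 5 were tested. The rise itself is therefore the basis of the choice and is described here without a test; the question examined is how each gene stood in wild-type cells in serum, which the choice did not use. The study has 12 RNA-seq libraries in 3 groups of 4. The first group is wild-type ESCs in 2i, which holds no serum but the GSK3 inhibitor CHIR99021 (3 µM), the MEK inhibitor PD0325901 (1 µM) and the cytokine LIF (1000 units/mL). Tfcp2l1 knockout ESCs were kept in the same medium. The remaining wild-type libraries came from cells kept with 15% fetal bovine serum (FBS) and LIF (1000 units/mL), without either inhibitor. All groups thus received LIF. The base medium also differed (DMEM/F12 and Neurobasal with N2 and B27 in 2i, high-glucose DMEM with FBS), so the parts of serum, base medium and the missing inhibitors cannot be told apart. The labels do not name the parental line or say how many knockout clones were used.

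Tfcp2l1 is a transcription factor of the CP2 and grainyhead family that is highly expressed in naive ESCs and supports their self-renewal. The 5 genes belong to no common pathway. Klhl13 encodes a BTB-kelch protein that brings substrates to the CUL3 ubiquitin ligase and, with its close relative Klhl9, acts on the mitotic kinase Aurora B. Foxi3 is a forkhead transcription factor of placodal and branchial ectoderm, the tissue that gives rise to the ear and parts of the jaw. Fgfbp1 is a secreted carrier that frees fibroblast growth factors from heparan sulfate in the matrix. Ap3b2 is the neuronal large beta subunit of AP-3, an adaptor complex that sorts membrane proteins from endosomes into vesicles, and its ubiquitous counterpart is Ap3b1. Prr19 is a proline-rich protein that works with Cntd1 in the formation of meiotic crossovers.

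To show what lies in front of the 5 genes, the 250 bases before a transcription start of each are printed from RefSeq (GRCm38.p6), 5′ to 3′ on the gene's own strand. Capitals mark the fixed letters of the motifs that were found in these windows.
Klhl13 (chrX:23365083-23365332, minus strand): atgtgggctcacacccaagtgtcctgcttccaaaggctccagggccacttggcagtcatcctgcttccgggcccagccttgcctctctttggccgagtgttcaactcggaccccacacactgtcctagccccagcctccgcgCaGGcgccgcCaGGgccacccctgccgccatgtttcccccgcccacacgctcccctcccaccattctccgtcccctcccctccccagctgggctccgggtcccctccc
Foxi3 (chr6:70956356-70956605, plus strand): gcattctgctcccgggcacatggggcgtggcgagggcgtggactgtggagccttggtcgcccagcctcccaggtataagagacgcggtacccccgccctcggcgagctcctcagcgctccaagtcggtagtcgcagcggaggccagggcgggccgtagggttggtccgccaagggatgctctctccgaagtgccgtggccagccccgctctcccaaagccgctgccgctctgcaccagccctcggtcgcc
Fgfbp1 (chr5:43981800-43982049, minus strand): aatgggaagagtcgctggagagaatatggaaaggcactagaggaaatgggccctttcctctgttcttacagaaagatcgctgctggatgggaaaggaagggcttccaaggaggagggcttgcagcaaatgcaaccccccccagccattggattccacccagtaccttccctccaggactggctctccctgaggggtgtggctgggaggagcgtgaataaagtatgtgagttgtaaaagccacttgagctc
Ap3b2 (chr7:81493926-81494175, minus strand): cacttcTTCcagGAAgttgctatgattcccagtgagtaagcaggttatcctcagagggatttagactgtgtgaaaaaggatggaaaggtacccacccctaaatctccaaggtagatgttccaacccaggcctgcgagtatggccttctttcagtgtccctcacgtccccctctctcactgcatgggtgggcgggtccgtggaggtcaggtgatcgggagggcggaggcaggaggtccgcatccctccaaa
Prr19 (chr7:25301109-25301358, plus strand): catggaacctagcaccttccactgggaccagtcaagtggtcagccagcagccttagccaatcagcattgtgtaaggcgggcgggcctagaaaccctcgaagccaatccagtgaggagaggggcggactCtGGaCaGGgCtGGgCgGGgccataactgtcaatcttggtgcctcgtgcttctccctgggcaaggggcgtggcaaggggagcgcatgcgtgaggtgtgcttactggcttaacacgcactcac
All 5 genes matched the RefSeq promoter table, Klhl13 with 5 windows, of which the one at the outermost start is shown. The deposited value of Klhl13 covers 1 transcript entry, and the start from which its reads came is not known. A relaxed form of the paired element bound by CP2 factors (CCNG, then 6 bases of any kind, then CCNG, on either strand) was in the window shown for Klhl13 and in the one that overlaps it, and, in 2 overlapping copies, in that of Prr19. The other 3 Klhl13 windows had no such match, and 1 of them held the STAT motif described next. It is also in 24.9% of all 32851 RefSeq promoter windows of this length. The STAT motif TTCNNNGAA, which reads the same on the other strand, was in the Ap3b2 window and is in 7.02% of all windows. CTTTGAT (TCF/LEF; 3.21% of all windows), AAGGTCA (a nuclear receptor element read by ESRRB; 4.08%) and CCGGAAGT (ETS; 2.88%), searched on both strands, did not occur in the 5 windows shown. The windows also differed in CpG content: Foxi3 held 24 CpG, Klhl13 12, Prr19 10, Ap3b2 7 and Fgfbp1 3, against a median of 6 over all windows.

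Levels are FPKM as the authors deposited them, and each gene's transcript entries were summed. The FPKM of a library summed to 347772 to 358340 over all entries, and its read depth is unknown. Tfcp2l1 stood at 112.3 to 143.2 FPKM in 2i wild type, 72.01 to 84.66 in the knockout and 25.8 to 37.09 in FBS; the value covers the whole transcript, so the loss of an exon need not show in it. ESC markers were expressed in all groups and differed between them: of 12 tested, 6 fell and 2 rose in the knockout, and 7 were lower and 2 higher in FBS than in 2i wild type. Nanog averaged 578.4 FPKM in 2i wild type, 389.7 in the knockout and 212.0 in FBS. The FPKM of the 12, to which Dppa5a and Pou5f1 contribute most, summed to 4356 to 5074 in 2i wild type, 4081 to 4270 in the knockout and 3382 to 4404 in FBS. Fibroblast markers differed between groups: 18 of 20 rose in the knockout, 12 were lower and 4 higher in FBS than in 2i wild type, and none was under 0.1 FPKM in any group. They summed to 215.2 to 346.7 FPKM in 2i wild type, 397.2 to 676.2 in the knockout and 90.2 to 125.7 in FBS. Of 10 neural markers 6 were tested, of which 5 rose and none fell in the knockout and 6 were higher in FBS. All 10 summed to 13.09 to 27.2, 33.77 to 44.29 and 61.57 to 88.08 FPKM in the same order, with Dcx under 0.1 FPKM throughout. Sox1, which was not tested, averaged 1.195 FPKM in 2i wild type, 0.6195 in the knockout and 0.5222 in FBS. Of 10 trophoblast markers 7 were tested, of which 4 rose and 2 fell in the knockout. All 10 summed to 34.03 to 44.48, 50.74 to 56.68 and 110.9 to 124.7 FPKM, and Elf5, Tpbpa and Prl3d1 were under 0.1 FPKM in both 2i groups. Of 10 endoderm markers 4 were tested, of which 2 rose and 1 fell in the knockout. All 10 summed to 16.75 to 22.43, 16.45 to 21.16 and 31.46 to 40.89 FPKM, with Afp under 0.1 FPKM throughout. These marker counts stand beside 24.0% of all tested genes that rose and 21.4% that fell in the knockout. Against 2i wild type, 35.3% of all tested genes were higher and 37.1% lower in FBS. The part of such cells in the levels of the 5 genes was not tested, and in bulk RNA a change in the number of cells that express a gene and a change in RNA per cell cannot be told apart.

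The 5 genes split by their level in FBS. Klhl13 and Foxi3 were higher still in FBS than in the knockout, Ap3b2 and Prr19 were far lower in FBS than in the knockout, and Fgfbp1 overlapped between the knockout and FBS.

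Klhl13 (NM_026167; mm9, chromosome X, 22796397 to 22942179) was the most abundant of the 5 in every group. Its FPKM values were 20.03, 18.52, 21.62 and 20.56 in 2i wild type and 98.45, 90.54, 101.2 and 96.26 in the knockout. In FBS it stood at 184.2, 214.5, 193.3 and 257.3 FPKM. The 3 groups did not overlap, and they ranked 2i wild type, knockout, FBS. The means were 20.18 ± 1.29, 96.62 ± 4.53 and 212.3 ± 32.5 FPKM (SD, n = 4 each), so the knockout was 4.79-fold and FBS 10.5-fold above 2i wild type, and the knockout held 45.5% of the FBS level. With these levels Klhl13 passed from above 69.95% of all tested genes in 2i wild type to above 94.99% in the knockout and 98.16% in FBS. On the log2(FPKM + 1) scale FBS exceeded 2i wild type by 3.32 (SE 0.09, adjusted p = 3.03e-11) and the knockout lay below FBS by a difference of -1.12 (SE 0.09, adjusted p = 2.70e-07). The median log2 change over the 435 tested genes of chromosome X was 0.0506 in the knockout and 0.0563 in FBS, both against 2i wild type.

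Foxi3 (NM_001101464; chromosome 6, 70906600 to 70911060) was nearly silent in 2i wild type, at 0.2248, 0.5716, 0.2193 and 0.914 FPKM. It stood at 6.357, 8.101, 6.307 and 5.506 FPKM in the knockout and at 18.03, 12.76, 15.34 and 17.75 FPKM in FBS. No group overlapped another, and the order was that of Klhl13. The means were 0.482 ± 0.332, 6.57 ± 1.09 and 15.97 ± 2.46 FPKM (SD, n = 4 each), and the knockout held 41.1% of the FBS level. The fold over 2i wild type, 13.6 in the knockout and 33.1 in FBS, rests on a very low base: the authors' bounds around those 4 values lay a median of 56.9% of the value to either side, against 17.3% in the knockout and 10.6% in FBS. FBS exceeded 2i wild type by 3.53 on the log2(FPKM + 1) scale (SE 0.16, adjusted p = 1.07e-09), and the knockout minus FBS was -1.16 (SE 0.16, adjusted p = 2.66e-05). Foxi3 was under 1 FPKM in all 4 2i wild-type libraries, so it entered the tests through the other groups. Over the 579 tested genes of chromosome 6 the median log2 difference from 2i wild type was -0.145 in the knockout and -0.125 in FBS. Single libraries lay -0.165 to 0.211 from the mean of all 12, with the widest spread, -0.11 to 0.211, among the 2i wild-type libraries. The part of this spread in the Foxi3 levels was not tested. The related genes Foxi1 and Foxi2 averaged at most 0.0162 FPKM in any group.

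Fgfbp1 (chromosome 5, 44370097 to 44373038) was the most variable of the 5 outside 2i wild type. Its level was 5.314, 5.069, 5.66 and 5.68 FPKM there, 33.19, 34.19, 22.3 and 20.31 FPKM in the knockout, and 20.7, 27.58, 9.964 and 11.08 FPKM in FBS. Replicates 1 and 2 lay above replicates 3 and 4 in both the knockout and FBS, and the knockout and FBS libraries overlapped, while 2i wild type lay below both. The means were 5.43 ± 0.294, 27.5 ± 7.20 and 17.3 ± 8.36 FPKM (SD, n = 4 each), which is 5.06-fold and 3.19-fold over 2i wild type. The SD was 26.2% of the mean in the knockout and 48.2% in FBS, where genes within 2-fold of its level had a median of 4.13% and 7.17%. FBS exceeded 2i wild type by 1.40 on the log2(FPKM + 1) scale (SE 0.27, adjusted p = 0.000405). The knockout exceeded FBS by 0.72 (SE 0.27, adjusted p = 0.0305), but the exact two-sided permutation p was 0.143. That call was also lost without knockout replicate 1 (0.62, adjusted p = 0.0831) or 2 (0.60, adjusted p = 0.086), without FBS replicate 3 (0.51, adjusted p = 0.0982) or 4 (0.55, adjusted p = 0.0974), and with 2 other settings.  Of its 2 transcript entries NM_008009 carried most of the level, and NM_001271616 reached at most 1.74 FPKM in any library.

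Ap3b2 (NM_021492; chromosome 7, 88605285 to 88638811) was 7.01-fold higher in the knockout and 1.54-fold higher in FBS than in 2i wild type. It stood at 2.742, 2.011, 3.161 and 2.84 FPKM in 2i wild type, at 18.89, 17.62, 20.41 and 18.45 FPKM in the knockout and at 3.696, 2.979, 5.095 and 4.771 FPKM in FBS. The knockout libraries lay far above all others, while FBS overlapped 2i wild type. The means were 2.69 ± 0.486, 18.84 ± 1.17 and 4.13 ± 0.976 FPKM (SD, n = 4 each), and the knockout was 4.56-fold above FBS. FBS exceeded 2i wild type by 0.47 on the log2(FPKM + 1) scale (SE 0.13, adjusted p = 0.00579), with p = 0.0571 in the exact two-sided permutation test. The knockout exceeded FBS by 1.97 (SE 0.13, adjusted p = 6.61e-08).

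Prr19 (NM_001081294; chromosome 7, 26086378 to 26089152) was likewise highest in the knockout, with FBS 2.29-fold above 2i wild type. Its level was 1.14, 0.9487, 1.078 and 1.124 FPKM in 2i wild type, 8.595, 9.379, 6.987 and 8.379 FPKM in the knockout, and 2.521, 1.327, 2.658 and 3.323 FPKM in FBS. The 3 groups did not overlap. The means were 1.07 ± 0.0867, 8.34 ± 0.996 and 2.46 ± 0.831 FPKM (SD, n = 4 each), so the knockout was 7.77-fold above 2i wild type and 3.39-fold above FBS. FBS exceeded 2i wild type by 0.70 on the log2(FPKM + 1) scale (SE 0.15, adjusted p = 0.00099), and the knockout exceeded FBS by 1.46 (SE 0.15, adjusted p = 2.81e-06). The authors' bounds around the 2i wild-type values lay a median of 37.5% of the value to either side.

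**Figure D1:**
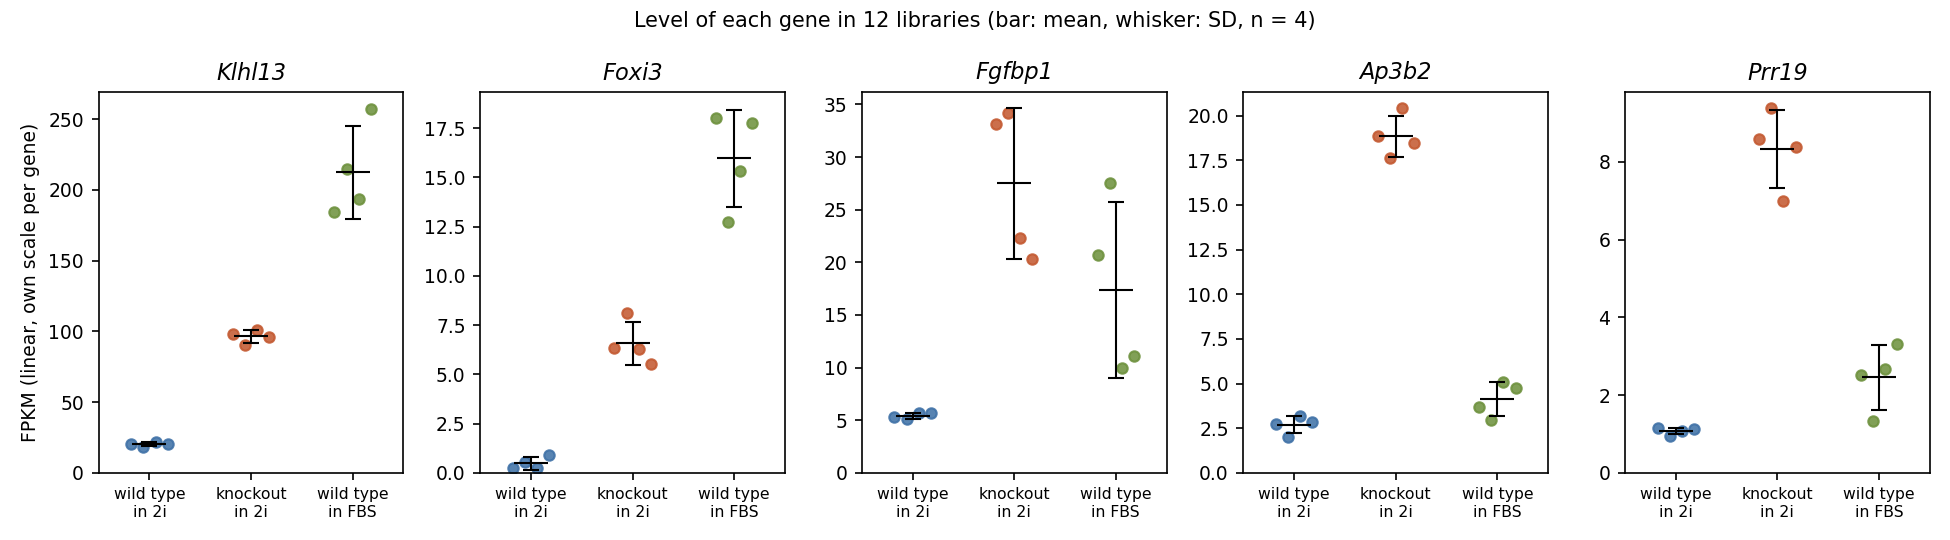
FPKM of the 5 genes (linear axes, 1 scale per gene) in the 12 libraries, with points for libraries, a bar for the mean and whiskers for the SD of each group of 4. Klhl13 and Foxi3 are highest in FBS (184.2 to 257.3 and 12.76 to 18.03 FPKM), whereas Ap3b2 and Prr19 are highest in the knockout (17.62 to 20.41 and 6.987 to 9.379 FPKM).

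All 5 genes were called higher in FBS than in 2i wild type and none lower, where 35.3% of the 12329 tested genes were called higher and 37.1% lower. The libraries of 4 of the 5 lay wholly above those of 2i wild type, as for 30.5% of all tested genes, with 32.0% wholly below. Between the knockout and FBS, where 66.6% of all genes were called, 3 of the 5 were called higher in the knockout (34.7% of all genes) and 2 lower (31.9%), with the Fgfbp1 call lost in the settings given above. The libraries of 2 of the 5 lay wholly higher in the knockout than in FBS (32.8% of all genes) and those of 2 wholly lower (30.0%). These tests use the 2i wild-type libraries or the knockout libraries by which the genes were chosen, so each is only partly independent of the choice, and the comparisons of either group with 2i wild type share its 4 libraries. For 4 of the 5 genes the exact two-sided permutation p of FBS against 2i wild type was 0.0286, the smallest that the 70 splits of 8 libraries allow. In the knockout against 2i wild type, where the choice was made, the log2(FPKM + 1) rises were 2.44 (Ap3b2), 2.37 (Foxi3), 2.21 (Klhl13), 2.17 (Prr19) and 2.11 (Fgfbp1), ranks 7, 8, 11, 13 and 15 among all tested genes, of which 24.0% were called higher; this order depends on the pseudocount. All 5 lay wholly above 2i wild type there, as 23.7% of all genes did, with 20.4% wholly below; since the genes were chosen on this contrast, nothing is read from these values. In FBS the corresponding differences ran from 0.47 for Ap3b2 to 3.53 for Foxi3, and ranked from 20 (Foxi3) and 23 (Klhl13) to 2218 (Ap3b2). The knockout range was set by the choice, so the width of the FBS range is not compared with it.

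**Figure D2:**
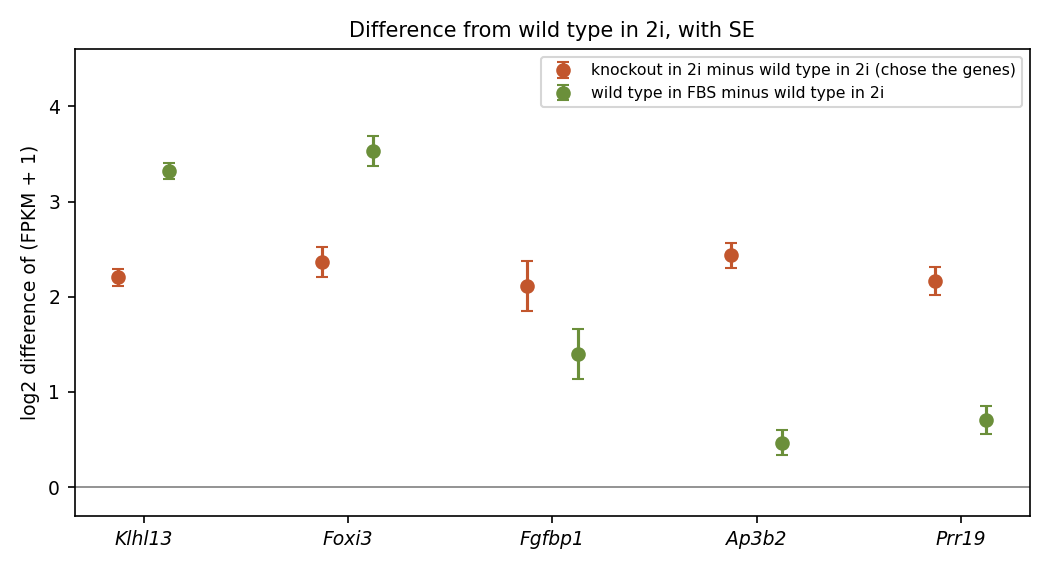
Difference from 2i wild type on the log2(FPKM + 1) axis for the 5 genes, with SE; orange is the knockout in 2i, the contrast by which the genes were chosen, and green is wild type in FBS. The knockout values lie between 2.11 and 2.44, a range set by the choice, and the FBS values between 0.47 and 3.53.

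Among the 5 genes, whose FPKM are per transcript length and so can be ranked, the order of levels changed with the group. In 2i wild type it was Klhl13, Fgfbp1, Ap3b2, Prr19 and Foxi3, with no overlap between neighbours in that order. In the knockout the order of means was the same, but Fgfbp1 (lowest 20.31 FPKM) overlapped Ap3b2 (highest 20.41), and Prr19 (lowest 6.987) overlapped Foxi3 (highest 8.101). In FBS Foxi3 moved up beside Fgfbp1, which it overlapped, ahead of Ap3b2 and Prr19.

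The genes that flank these 5 on the chromosome were compared next, by the deposited mm9 coordinates. No other gene of the table overlapped any of the 5. Of the 10 nearest genes on either side, 8 were expressed enough to be tested, and in the knockout 7 of the 8 rose and 1 fell, against 24.0% and 21.4% of all tested genes. The filter bears on this count: BC048679, Prom1, Tmem145 and Thnsl2, all 4 among those that rose, did not reach 1 FPKM in every 2i wild-type library and were tested through the groups where they are higher. Of the other 4, which did, 3 rose and 1 fell. In FBS 4 of the 8 were higher, 1 was lower and 3 were not called, against 35.3% higher and 37.1% lower of all tested genes. The flanking genes are few, no test of the group was made, and nothing is read from these counts.

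BC048679 lies beside Ap3b2. It ends 348 bases before the start of Ap3b2, on the same strand in GENCODE (GRCm38). Its level was 0.9011, 0.4581, 0.5129 and 0.4373 FPKM in 2i wild type, 4.375, 3.916, 5.90 and 4.427 FPKM in the knockout, and 0.355, 0.2293, 0.4255 and 0.8321 FPKM in FBS. Like Ap3b2 it was high in the knockout libraries and low in the other 8. It was under 1 FPKM in all 8 libraries outside the knockout and so was tested only through the 4 libraries where it is high. With that limit, its log2 change in the knockout was 1.84 (SE 0.14, adjusted p = 1.01e-06), and its difference in FBS did not pass (-0.12, SE 0.14, adjusted p = 0.461). On the other side of Ap3b2, at 5.64 kb, Cpeb1, a regulator of cytoplasmic polyadenylation, went from 1.90 ± 0.518 to 3.97 ± 0.274 FPKM in the knockout (log2 change 0.79, SE 0.16, adjusted p = 0.00186) and stood at 2.05 ± 0.733 FPKM in FBS (adjusted p = 0.758). Cpeb1 thus rose in the knockout and was not shown to differ between FBS and 2i wild type. For BC048679 the filter favours a rise in the knockout, and FBS and 2i wild type were both under 1 FPKM. Nothing is therefore read from its tests. The same holds for its likeness to Ap3b2, which was chosen for its level in the same knockout libraries. Reads between genes are not in the table.

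The neighbours of Fgfbp1 went in opposite directions. Prom1, which encodes the membrane protein CD133 and lies 11.8 kb away on the same strand, rose from 0.558 ± 0.0567 to 2.78 ± 0.465 FPKM in the knockout (log2 change 1.27, SE 0.13, adjusted p = 1.33e-05) and stood at 4.84 ± 1.26 FPKM in FBS. Cd38, an ectoenzyme that consumes NAD, lies 66.5 kb away on the opposite strand and fell from 6.95 ± 0.493 to 3.16 ± 0.220 FPKM (log2 change -0.93, SE 0.06, adjusted p = 4.54e-07), with 2.27 ± 0.132 FPKM in FBS. Beside Prr19, Tmem145 begins 1.97 kb further along on the same strand, and it went from 0.158 ± 0.0542 to 0.956 ± 0.245 FPKM (adjusted p = 0.00134) and to 1.46 ± 0.591 FPKM in FBS. Pafah1b3, a subunit of a platelet-activating factor hydrolase on the opposite strand, rose a little, from 30.9 ± 2.54 to 37.6 ± 1.49 FPKM (log2 change 0.28, SE 0.07, adjusted p = 0.00714). Thnsl2, 167 kb from Foxi3, rose from 0.874 ± 0.191 to 2.43 ± 0.481 FPKM (adjusted p = 0.000107), and Tex37 on the other side averaged at most 0.0109 FPKM. Prom1, Tmem145 and Thnsl2 did not reach 1 FPKM in every 2i wild-type library. The filter favours their rises, so nothing is read from those tests. The nearest tested gene of Klhl13 was Wdr44, 328 kb away. Wdr44 changed by 0.20 (SE 0.06, adjusted p = 0.0201), a call lost without knockout replicate 4 (adjusted p = 0.064) and after quantile normalization (adjusted p = 0.0591).

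**Figure D3:**
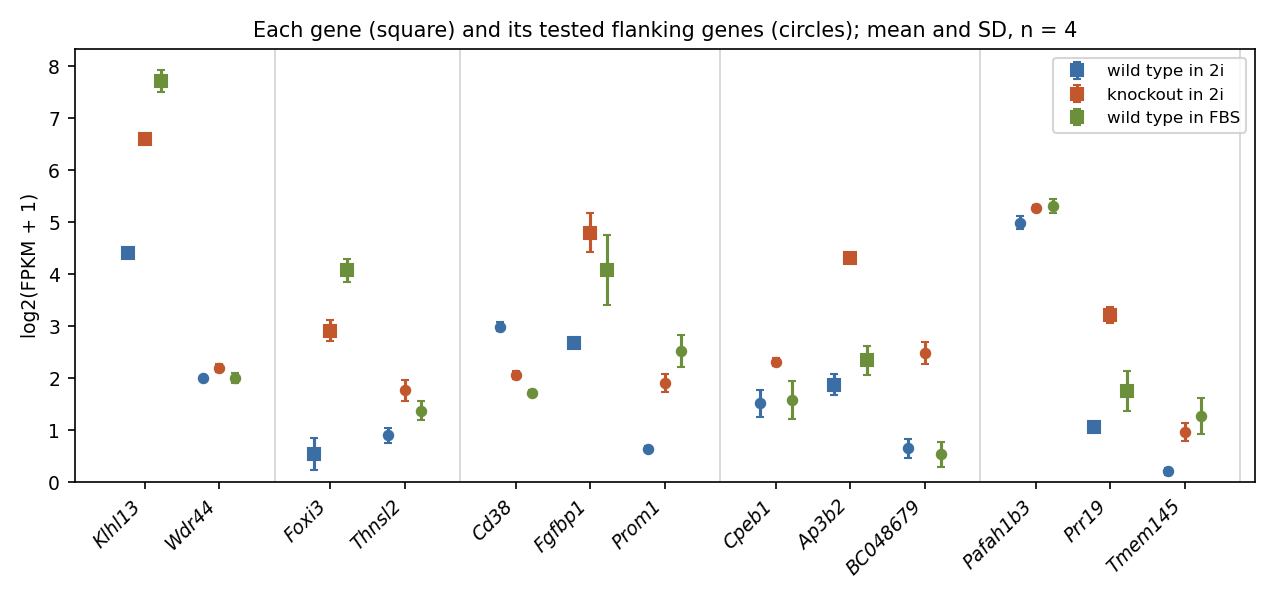
Mean log2(FPKM + 1) with SD (n = 4) of each of the 5 genes (squares) and its tested flanking genes (circles) in the 3 groups, in chromosome order within each block. BC048679 and Ap3b2 are highest in the knockout (4.654 and 18.84 FPKM), whereas Prom1 is highest in FBS (4.84 FPKM).

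Related genes were then examined by function, with the 5 genes themselves left out. Each count for the knockout below stands beside 24.0% of all tested genes that rose and 21.4% that fell. The first list holds the CUL3 ligase that Klhl13 serves and other BTB-kelch adaptors of that ligase. In the knockout 8 of its 26 tested genes rose, 7 fell and 11 did not pass, with a median log2 change of -0.0198. Klhl7 rose from 3.54 ± 0.321 to 7.68 ± 0.444 FPKM (adjusted p = 8.53e-06), while Klhl2 fell from 16.3 ± 0.474 to 11.7 ± 0.277 FPKM and Klhl20, an adaptor with roles in trafficking and autophagy, from 8.23 ± 0.271 to 6.21 ± 0.226 FPKM. Klhl9, the closest relative of Klhl13, averaged 12.77 FPKM in 2i wild type and 12.81 in the knockout and did not pass (adjusted p = 0.949). Nedd8, the ubiquitin-like modifier that activates cullins, did not pass either, at 178.0 ± 14.95 and 172.4 ± 11.2 FPKM. In the chromosomal passenger complex, which holds Aurora B, Cdca8 fell from 95.5 ± 1.24 to 79.5 ± 1.47 FPKM and the other 3 of 4 genes did not pass; Birc5 (117 ± 5.61 and 108 ± 4.39 FPKM, adjusted p = 0.051) was called with median-ratio scaling (adjusted p = 0.0268) and without 2i wild type replicate 3 (adjusted p = 0.00993).

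Of 21 placode and branchial ectoderm factors, the setting in which Foxi3 is known, 9 were expressed enough to be tested. In the knockout 6 of the 9 rose, 1 fell and 2 did not pass, where 24.0% of all tested genes rose and 21.4% fell. The median log2 change of the 9 was 0.599. The homeobox gene Msx2 rose from 1.61 ± 0.635 to 6.32 ± 0.591 FPKM, the zinc finger gene Gata3 from 0.742 ± 0.170 to 2.44 ± 0.104 FPKM and Tfap2c, an AP-2 factor also active in trophoblast and germ cells, from 26.8 ± 2.20 to 41.3 ± 1.97 FPKM. Gata3 and Tfap2c are also in the list of trophoblast markers above, whose part in this count was not tested. Eya1, a transcriptional cofactor and phosphatase, was the gene that fell, from 1.37 to 0.941 FPKM. Gata2 did not pass, at 1.98 ± 0.83 and 2.27 ± 0.238 FPKM. The 12 genes that were not tested include Dlx5, Dlx6, Pax2, Pax8 and Edar, which averaged at most 0.219 FPKM in any group. Others of the 12 had a lower mean in the knockout than in 2i wild type: Tfap2a (0.6917 and 1.15 FPKM), Dlx3 (0.5134 and 0.7108), Eya2 (0.2082 and 0.3765) and Eda (0.8379 and 1.029). Msx1 had a higher mean in the knockout (0.855 and 0.4494 FPKM).

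Genes of FGF signalling, where Fgfbp1 acts, moved both ways: of 22 tested, 6 rose in the knockout, 5 fell and 11 did not pass, with a median log2 change of -0.0253. Of the 22, 16 reached 1 FPKM in every 2i wild-type library, and of these 3 rose, 5 fell and 8 did not pass. The other 6, with Fgfr2 among them, held the remaining 3 rises, a direction that the filter favours. The receptor Fgfr2 rose from 0.391 ± 0.0742 to 1.75 ± 0.190 FPKM and reached 11.5 ± 2.01 FPKM in FBS. Gpc4, a glypican that carries heparan sulfate, fell from 26.5 ± 1.47 to 13.1 ± 2.47 FPKM, and Fgfrl1, a receptor without a kinase domain, from 7.15 ± 0.343 to 4.96 ± 0.341 FPKM. Sdc4, a syndecan, did not pass, at 71.6 ± 13.4 and 70.6 ± 7.46 FPKM. Fgfbp3, the other member of the carrier family in the list, averaged at most 0.641 FPKM and was not tested.

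The partners of Ap3b2 in the AP-3 complex changed little in the knockout. Of the other 6 AP-3 subunits 2 rose in the knockout and 4 did not pass, with a median log2 change of 0.0286. Ap3d1, the delta subunit, went from 26.1 ± 1.73 to 29.7 ± 0.425 FPKM (log2 change 0.18, SE 0.05) and Ap3m2, the neuronal mu subunit, from 3.27 ± 0.512 to 4.09 ± 0.231 FPKM (log2 change 0.26, SE 0.09, adjusted p = 0.0278). The Ap3m2 call was lost without 2i wild type replicate 1, 3 or 4 or knockout replicate 1, 2 or 3, with adjusted p from 0.057 to 0.0786. Ap3b1, the ubiquitous beta subunit, did not pass (36.5 ± 3.48 and 34.6 ± 1.58 FPKM), so Ap3b2 stood at 18.84 FPKM beside 34.6 for Ap3b1 in the knockout and at 2.69 beside 36.5 in 2i wild type. In FBS Ap3b2 stood at 4.13 FPKM beside 24.2 for Ap3b1, which was lower there than in 2i wild type (adjusted p = 2.93e-06). Of the 6 subunits 3 were higher, 2 lower and 1 not called in FBS, where 35.3% of all tested genes were higher and 37.1% lower. Among 16 tested genes of other adaptors, of BLOC-1 and of AP-3 cargo, 2 rose, 6 fell and 8 did not pass. Ap2b1, of the endocytic adaptor, rose from 29.8 ± 1.78 to 37.9 ± 1.73 FPKM. Slc30a3, a vesicular zinc transporter that AP-3 sorts in neurons, fell from 2.29 ± 0.569 to 0.776 ± 0.194 FPKM, and the kinase Pi4k2a fell from 28.0 ± 2.52 to 22.7 ± 1.06 FPKM. Ap2a1 did not pass, at 64.6 ± 1.38 and 67.4 ± 1.37 FPKM.

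In meiotic recombination, the process of Prr19, 17 of 26 listed genes were tested; 7 rose in the knockout, 1 fell and 9 did not pass, with a median log2 change of 0.0924. Meioc, which sustains meiotic prophase, rose from 1.68 ± 0.143 to 3.98 ± 0.225 FPKM and Mei4, needed for meiotic DNA breaks, from 0.656 ± 0.222 to 1.41 ± 0.231 FPKM. Hormad1, a chromosome axis protein, fell from 11.5 ± 1.96 to 6.91 ± 0.931 FPKM. Cntd1, the partner of Prr19, averaged 2.60 FPKM in 2i wild type and 2.18 in the knockout and did not pass (adjusted p = 0.592), nor did Cdk2, at 46.7 ± 1.89 and 44.1 ± 3.35 FPKM. Against 2i wild type, 3 genes of the list were higher in FBS, 11 lower and 3 not called, beside 35.3% higher and 37.1% lower of all tested genes. The median log2 difference was -0.561, where the median over all genes was -0.0142. The filter bears on this count. Some of the lower genes, Cntd1 and Hormad1 among them, did not reach 1 FPKM in every FBS library and were tested through the 2i groups. Mei4, which was higher in FBS, did not reach it in every 2i wild-type library. Prr19 itself was higher in FBS.

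**Figure D4:**
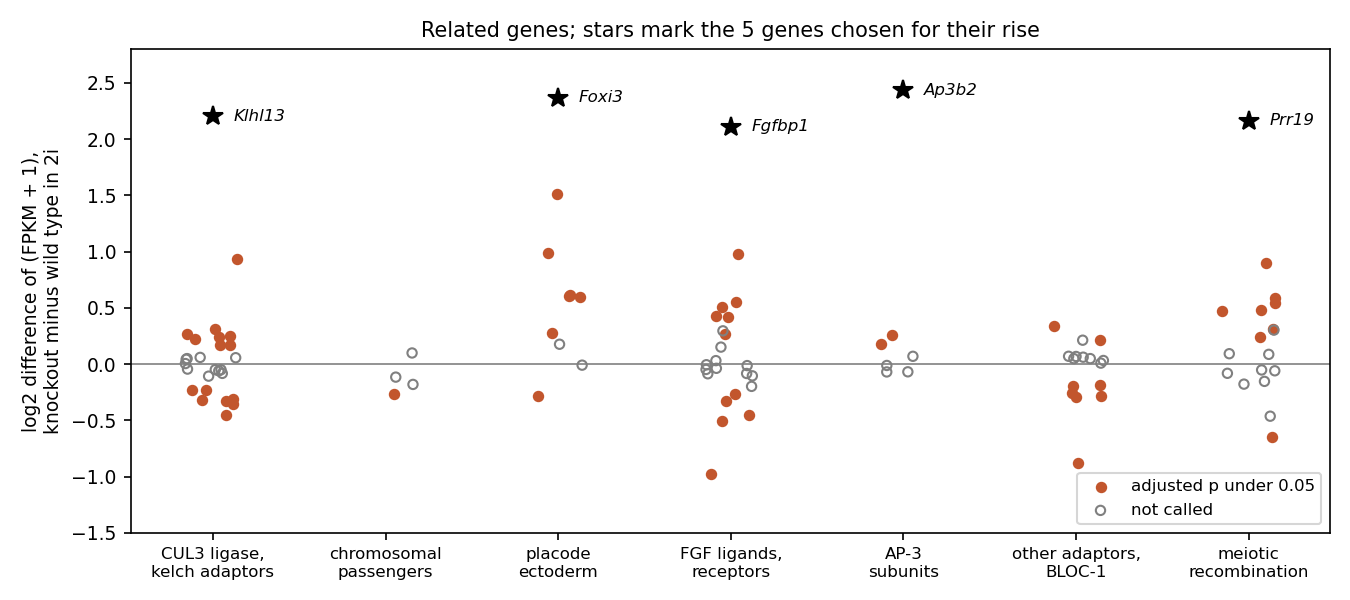
Log2 difference of (FPKM + 1), knockout minus 2i wild type, for the tested genes of the 7 related lists; filled points passed an adjusted p of 0.05, open points did not, and stars mark the 5 genes chosen for their rise. The stars lie at 2.11 to 2.44, and the highest related gene, Msx2, lies at 1.52.

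Across all lists 52 of 100 tested genes passed in the knockout, 31 higher and 21 lower, beside 45.3% of all genes. Of the 100, 12 did not reach 1 FPKM in every 2i wild-type library, among them Gata3, Fgfr2 and Mei4; 6 of these 12 rose and none fell, a direction that the filter favours. In FBS 78 of 100 passed, 36 higher and 42 lower, beside 72.4% of all genes.

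The tested genes whose pattern was most like each of the 5 were taken by Pearson's r of log2(FPKM + 1) over the 12 libraries, as a description; the libraries form 3 groups, so r mostly reflects the 3 group means. For Klhl13 they were Arhgap29 (r = 0.9928; 2.53, 5.30 and 7.47 FPKM in 2i wild type, knockout and FBS), Hmgn5 (r = 0.9885) and Slc25a5 (r = 0.9874). For Foxi3 they were Dll1, a Notch ligand (r = 0.992; 1.04, 6.26 and 14.8 FPKM), Plk3 (r = 0.9905) and Armcx2 (r = 0.9901). Fgfbp1 had lower values: Wapl (r = 0.9622), Lef1, a Wnt effector (r = 0.9585; 1.19, 8.61 and 5.01 FPKM), and Ankfy1 (r = 0.9568). Ap3b2 was closest to Olig3, a neural transcription factor (r = 0.9882; 0.202, 3.78 and 0.667 FPKM), Slf2 (r = 0.9821) and Nt5e (r = 0.9761). Prr19 was closest to Ago1 (r = 0.9775; 11.1, 16.9 and 12.6 FPKM), and Nt5e (r = 0.9717) and Olig3 (r = 0.9695) stood next, so that 2 genes appear for both Ap3b2 and Prr19. Olig3 averaged under 1 FPKM in 2i wild type and in FBS, so it was tested through the knockout libraries, where it is high. The 5 genes were chosen by their rise in those same libraries, so nothing is read from these likenesses.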

How the data were processed

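RNA-seq of 12 mouse ESC libraries was used. The authors deposited 1 table of FPKM values with bounds per RefSeq transcript, per the file headers. Build mm9, Cufflinks and CASAVA 1.8.2 are named per the submitters' processing notes; the aligner and the handling of strand are not given in the sources used here. RefSeq and GENCODE vM21 name tables gave a symbol to 98.8% of 30761 entries, and entries were summed per symbol. The 7 genes with a failed estimate were left out. A gene entered the tests when 4 or more libraries reached 1 FPKM; testing was done on log2(FPKM + 1), which understates changes of low genes, with limma 3.58.1 (R 4.3.3; 1 mean per group, all 12 libraries, eBayes with intensity trend, two-sided, Benjamini-Hochberg adjusted p under 0.05 over 12329 genes), tested on simulated data. Adjusted p-values are limma's; permutation tests were exact and two-sided over 8 libraries. The labels do not state that replicates were separate cultures; the p-values then reflect the spread among these libraries alone, and that spread may be technical.

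The 5 genes, the 7 lists and the markers were chosen with earlier results of these data known. Genes named are the 5, Tfcp2l1, per list up to 3 with the smallest adjusted p and the highest-expressed one not called, flanking genes, and the 3 most similar patterns per gene. Klhl9, Eya1, Cntd1, Fgfbp3, Sox1, the Foxi genes and the placode genes that were not tested were named after their values were seen. Coordinates of genes are mm9, 1-based, from the table; promoters are GRCm38.p6. The authors' upper bound lay below the value itself for Klhl13 in all 8 knockout and FBS libraries and for Foxi3 in 2 libraries, so the bounds serve only as a description. Python 3.11.15 was used for the rest.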

Additional observations from a re-analysis of the deposited data

How the results depend on the processing

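Alternatives were pseudocounts of 0.1 and 0.01, a filter of 5 FPKM or none, scaling by TPM, quantiles or median ratios, fits on only the 8 libraries compared, the replicate block, 2 other eBayes settings, the highest entry per symbol, and leaving out each library. All 5 genes stayed higher in FBS than in 2i wild type, with adjusted p at most 0.0205 (Ap3b2 without FBS replicate 4), and all but Fgfbp1 kept their call between knockout and FBS in these settings. For Fgfbp1 that difference of 0.72 had adjusted p = 0.055 with no filter and 0.056 on only the 8 libraries, and it ran from 0.51 to 0.97 when a library was left out. The number of related genes called in the knockout, 52, became 34 with a filter of 5 FPKM, where fewer genes were tested (68). Pseudocounts of 0.1 and 0.01 and TPM scaling raised the knockout difference of Foxi3 from 2.37 to 3.68, 3.98 and 3.14, of Prr19 from 2.17 to 2.84, 2.94 and 2.62, and of Ap3b2 from 2.44 to 2.78, 2.82 and 2.69, which changes the order of the 5 rises; the FBS difference of Foxi3 went from 3.53 to 4.95, 5.26 and 4.35. The labels do not say what a shared replicate number means. Deviations of same-numbered libraries correlated at -0.0295 to 0.258, over 0.1 in 5 of 12 pairs, and a library was closest to its own number in 13 of 24 comparisons: a hint of pairing in part of the libraries, short of the rule used here (over 0.1 in every pair). With the replicate block 5567 genes passed in the knockout (5589 without), 8899 in FBS (8928) and 8260 between knockout and FBS (8212), and no call of the 5 genes changed; Fgfbp1 was above FBS in the knockout library of each number, with adjusted p = 0.0126 under the block. Scaling moved the median of all genes by under 0.1, but it changed the balance of calls. With median-ratio scaling more genes were called lower than higher in the knockout against 2i wild type. In the main setting and with TPM or quantile scaling more were called higher. For FBS against 2i wild type the balance turned with quantile scaling. The 24.0% higher and 21.4% lower in the knockout, like the other percentages of all tested genes, therefore hold for the main setting only. Without read depth, levels under 1 FPKM, as of Foxi3 in 2i wild type, carry the widest bounds.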
